A study of Mus musculus with 2 samples.

Results

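The levels of 5 genes were followed in colon monocytes of wild-type and Nlrp6-deficient mice: Gdpd3, Mitd1, Glo1, Nnt and Wdfy1. Gdpd3 and Mitd1 were picked because their levels on these same arrays were much higher in the Nlrp6-/- sample. Glo1, Nnt and Wdfy1 were picked as genes known to vary between mouse strains. Their probe sets were found by gene symbol, and each gene had 1 probe set of its own, so the 5 genes take 5 of 41345 probe sets and 5 of 22184 named genes. A further probe set carries the symbol of Wdfy1 together with that of another gene and was not used.

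RNA came from inflammatory monocytes sorted out of the colon lamina propria, as CD11b-positive cells with high Ly6C and without CD3 and Ly6G. Both groups had received azoxymethane, a colon carcinogen, at 10 mg/kg, then 2% dextran sodium sulfate, a chemical that damages the epithelium, over 5 days starting on day 5, and cells were taken on day 10. One group was WT and the other Nlrp6-/-, lacking an intracellular innate immune receptor, with 1 Affymetrix Mouse Gene 2.1 ST array each. The strain is written C57BL/6 for WT and C57Bl/6 for Nlrp6-/-. The substrain, the way the knockout line was made, its backcrossing, the age and sex of the mice and the number of mice behind each RNA are not given in the labels. With no replicates, the differences below carry neither error nor p-value, and genotype, individual mice and array cannot be told apart.

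The 5 genes work in separate places. GDPD3 is a membrane enzyme that cleaves lysophospholipids and releases lysophosphatidic acid, a signalling lipid. MITD1 binds the ESCRT-III membrane-cutting machinery and, in human cells, acts at the midbody where dividing cells separate. GLO1 is the glutathione-dependent enzyme that clears methylglyoxal, a reactive by-product of glycolysis, and its gene is duplicated in some inbred mouse strains. NNT sits in the inner mitochondrial membrane and makes NADPH from NADH with the proton gradient, and C57BL/6J mice carry a deletion of several Nnt exons that other C57BL/6 substrains lack. WDFY1 is an endosomal FYVE-domain protein that links the adaptor TRIF to the receptors TLR3 and TLR4.

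RefSeq promoter sequences, of mouse build GRCm38.p6, were given for 3 of the 5 genes. They run from 250 bases before the annotated start site to 50 after it, 5′ to 3′ on the gene's own strand, and are shown to let the flanks of the differing genes be compared. Gdpd3's is chr7:126766164-126766463 on the plus strand, Mitd1's chr1:37890362-37890661 on the minus strand and Glo1's chr17:30612610-30612909 on the minus strand. Capitals mark matches, on either strand, to 7 motifs: the IRF core (AANNGAAA), the GAS element (TTCNNNGAA), the ARE core (TGACNNNGC), the GC box (GGGCGG), the E-box (CACGTG), the TATA box (TATAAA) and the letters CCAAT.
Gdpd3: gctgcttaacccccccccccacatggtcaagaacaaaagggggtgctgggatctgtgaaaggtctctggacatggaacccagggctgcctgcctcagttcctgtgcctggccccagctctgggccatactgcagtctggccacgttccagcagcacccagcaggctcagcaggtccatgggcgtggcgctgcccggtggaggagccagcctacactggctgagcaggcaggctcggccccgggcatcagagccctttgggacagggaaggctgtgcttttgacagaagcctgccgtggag
Mitd1: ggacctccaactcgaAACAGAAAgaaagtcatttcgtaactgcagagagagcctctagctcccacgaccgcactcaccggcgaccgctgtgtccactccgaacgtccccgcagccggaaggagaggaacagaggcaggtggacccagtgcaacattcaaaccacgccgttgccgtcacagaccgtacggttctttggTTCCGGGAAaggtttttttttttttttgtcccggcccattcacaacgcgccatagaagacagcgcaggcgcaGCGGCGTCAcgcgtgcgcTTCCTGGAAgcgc
Glo1: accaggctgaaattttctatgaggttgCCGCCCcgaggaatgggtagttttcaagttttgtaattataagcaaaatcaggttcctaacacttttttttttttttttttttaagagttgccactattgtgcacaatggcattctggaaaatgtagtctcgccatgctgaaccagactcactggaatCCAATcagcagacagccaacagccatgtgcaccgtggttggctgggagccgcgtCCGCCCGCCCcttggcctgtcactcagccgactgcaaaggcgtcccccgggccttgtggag
In the Gdpd3 sequence none of the 7 motifs was found. Mitd1 held 1 match to the IRF core, the letters bound by interferon regulatory factors, which begins 235 bases before the start site. It also held 2 GAS matches, the element type bound by STAT dimers, and 1 ARE match, the type bound by NRF2. Glo1 held 1 CCAAT match and 3 GC box matches, the last 2 of which overlap. Of all 32851 RefSeq promoter windows of this length, 23.9% held an IRF core match, 8.30% a GAS match, 12.4% an ARE match, 37.4% a CCAAT match and 35.7% a GC box match. TATA matches were in 13.6% of windows and E-box matches in 7.15%, and in none of these 3. The G and C content was 64.3% for Gdpd3, 58% for Mitd1 and 49.7% for Glo1, against a median of 52.7% over all windows. A match describes letters, not a bound site.

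Gdpd3 had the widest gap of the 5 genes. Its log2 level was 2.85 in WT and 7.41 in Nlrp6-/-. The detection floor was set by 1401 probe sets of olfactory and vomeronasal receptor genes, which monocytes are not known to use, at their 95th percentile. It was 3.26 on the WT array and 3.22 on the Nlrp6-/- array. Gdpd3 was therefore not above the floor in WT and stood 4.19 log2 units over it in Nlrp6-/-. Taken against the WT floor, it was at least 17.7-fold higher in Nlrp6-/-, and the measured levels themselves differed by 4.56. The bound depends on the floor. A floor set at the receptors' 99th percentile made it at least 5.02-fold, and one at their 90th percentile let both levels count as measured, 23.5-fold apart. In WT 138 of the 1401 receptor probe sets were at or above the level of Gdpd3, and in Nlrp6-/- 1 was.

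Mitd1 was above the floor on both arrays. Its log2 level was 4.32 in WT and 6.48 in Nlrp6-/-, which is 2.17 apart or 4.50-fold. A floor at the receptors' 99th percentile placed its WT level below detection, and the gene was at least 2.64-fold higher. These 2 differences chose both genes and are given as a description.

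The 3 genes listed for strain variation had smaller gaps. Glo1 was at 4.03 in WT and 4.69 in Nlrp6-/-, which is 0.65 on the log2 scale or 1.57-fold. Nnt was at 3.42 and 3.67, a difference of 0.24, and in WT it was only 0.16 above the floor. Wdfy1 was at 4.60 and 4.71, a difference of 0.11. Glo1 was thus more than 1.5-fold apart, and Nnt and Wdfy1 less. These 3 lay above their WT level, as did 51.6% of all genes above a floor on at least 1 array (4912 of 9527), and Gdpd3 and Mitd1 were picked for doing so.

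**Figure D1:**
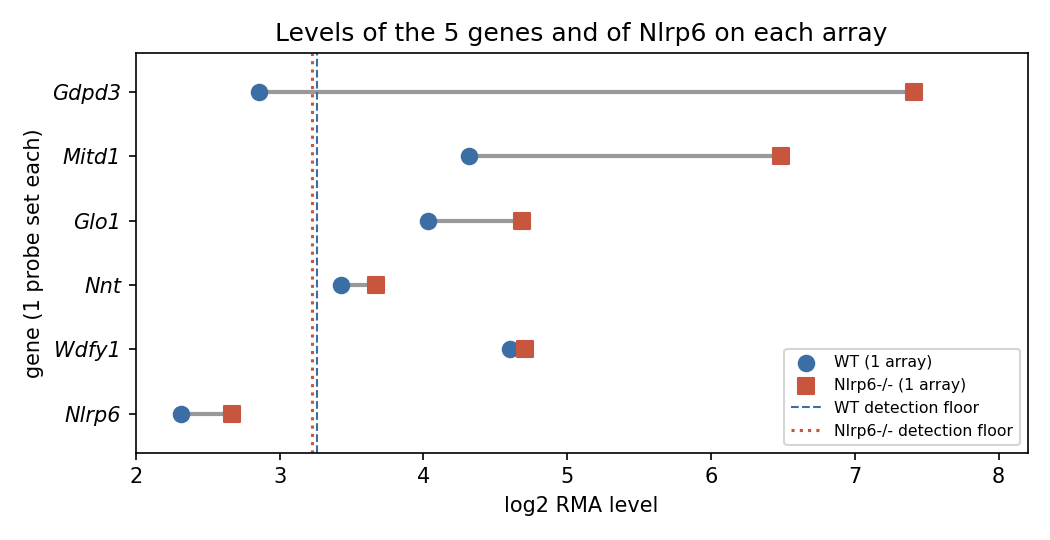
Log2 RMA level (x axis) of each of the 5 genes and of Nlrp6 (y axis) on the WT array (circles) and the Nlrp6-/- array (squares), with each array's detection floor as a vertical line. Gdpd3 crosses from 2.85 to 7.41, Mitd1 goes from 4.32 to 6.48, and Nnt and Wdfy1 differ by 0.24 and 0.11.

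The whole series sets the scale for these gaps. Of 9527 genes above the floor on at least 1 array, 154 (1.62%) exceeded their WT level by 2-fold or more and 31 (0.325%) fell short of it by as much, together 1.94%. Gdpd3 and Mitd1 were chosen for being among the 154. At 1.5-fold, 592 were higher (6.21%) and 291 lower (3.05%), together 9.27%, with Glo1 among the higher. Among the 8565 genes above both floors, ordered from the highest difference, Mitd1 was at place 6, between Egln3 and Cmpk2. Glo1 was at place 445, Nnt at 2021 and Wdfy1 at 3199. Gdpd3 has only a bound, which moves with the floor, so it is given no place. Of the same 8565 genes, 43.6% were as far apart as Nnt or farther, and 72.0% as far apart as Wdfy1 or farther. The median difference over the 9527 genes was 0.01, and the receptor probe sets' differences had an SD of 0.19 and a largest size of 0.94. Where a gene had more than 1 probe set above the floor on both arrays (422 genes), the differences of its probe sets disagreed by a median of 0.31, which is more than the differences of Nnt and Wdfy1. The 90th percentile of this disagreement was 0.79, which is also more than the difference of Glo1. Each of the 5 genes has 1 probe set, so no such check exists for them.

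**Figure D2:**
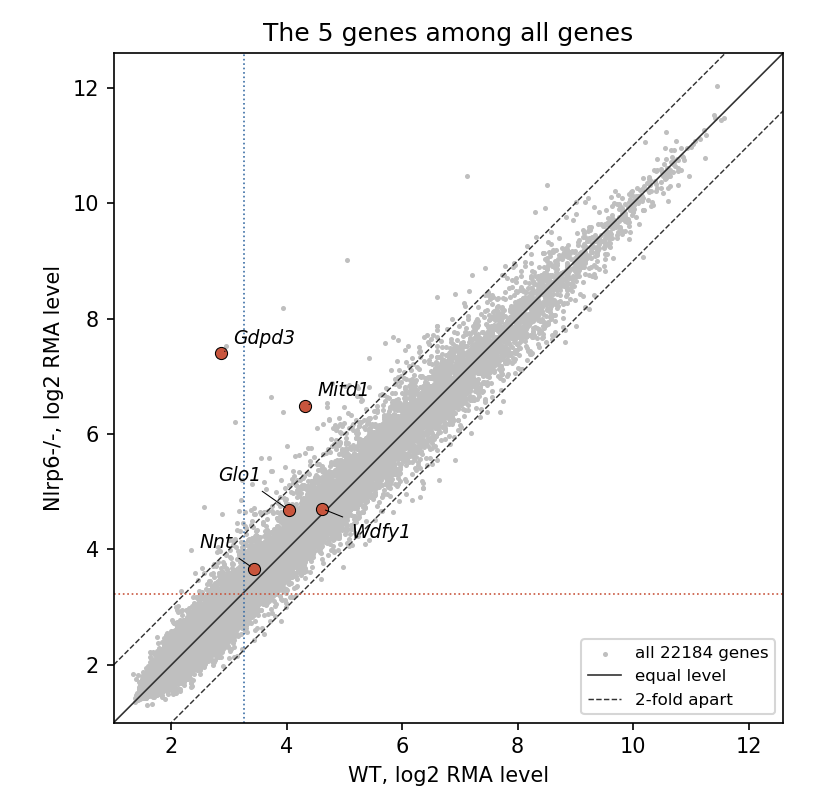
Log2 RMA level on the WT array (x axis) against the Nlrp6-/- array (y axis) for all 22184 genes (grey), with the 5 genes as larger points, lines of equal level and of a 2-fold difference, and dotted lines at the detection floors. Gdpd3 and Mitd1 lie above the 2-fold line, and Glo1, Nnt and Wdfy1 lie between the equal line and that line.

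The pair of levels closest to each gene's own, by Euclidean distance over both arrays, describes which genes shared its pattern. With 2 arrays this likeness is a coarse one. Nearest to Gdpd3 was Igkv6-23, an antibody light chain segment, at 2.95 in WT and 7.52 in Nlrp6-/- and a distance of 0.14. The next were Klk1, a tissue kallikrein, at a distance of 1.16, and Ctrb1, a pancreatic protease precursor, at 1.22. In WT, Gdpd3, Igkv6-23 and Ctrb1 were below the floor, so these distances rest partly on WT levels not told from background. Nearest to Mitd1 were Pnpt1, a mitochondrial RNA-processing enzyme (4.70 and 6.46), Ighg3, an antibody heavy chain constant region (4.70 and 6.54), and Egln3, a prolyl hydroxylase of the hypoxia response (3.94 and 6.38). They lay at distances of 0.38 to 0.39. Glo1, Nnt and Wdfy1 sat in denser regions, where the nearest 3 genes were within 0.034, 0.025 and 0.023. For Glo1 these were Mrps23, Lrg1 and Nop14, for Nnt Gfm2, Tnfsf15 and Hspg2, and for Wdfy1 Ctr9, Prxl2c and Cdk4.

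Nlrp6 itself, the deleted gene, did not reach the floor on either array (WT 2.32, Nlrp6-/- 2.67), so it gave no check of the labels. Gdpd3 and Nlrp6 lie on the same chromosome, with 203 genes that have a probe set of their own between them in RefSeq gene order. Of these, 108 were above a floor. Only Zg16, a secreted lectin of goblet cells, was at least 2-fold apart, higher at a bound of 1.47 on the log2 scale. That is 0.926% of the 108, against 1.94% of all genes in either direction. At 1.5-fold 6 were higher and 3 lower, 8.33% against 9.27%, and the median difference was -0.03. Among the 25 genes on each side of Nlrp6 in that order, 21 of 50 were above a floor and none was 2-fold apart. Of all genes 1.94% were. At 1.5-fold 3 of the 21 were higher and 1 lower, beside 6.21% and 3.05% of all genes. These 4 were Ifitm5 (0.94), Ifitm6 (0.85) and Irf7 (0.78), all higher, and Ric8a (-0.61), lower. Irf7 is a transcription factor of the interferon response, and Ifitm6 is a member of the interferon-induced transmembrane family.

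Neighbours were taken from an order of the 21994 genes that matched RefSeq and were read by a single-symbol probe set. Genes outside this order may lie closer, and their levels were not read. Within it, no gene next to Gdpd3 or Mitd1 had a gap of the size for which those 2 genes were picked. Beside Gdpd3, Coro1a, an actin-binding protein of leukocytes, was at 7.45 in WT and 7.14 in Nlrp6-/-. On the other side Ypel3 was at 5.43 and 5.63. All 6 measured genes of the 10 nearest to Gdpd3 lay between -0.31 and 0.50. Beside Mitd1, the overlapping gene Lipt1, a lipoyltransferase, was below both floors. The nearest measured genes were 4930594C11Rik, at 3.10 and 3.27 around the floor, and Txndc9, a thioredoxin-like protein, at 4.09 and 3.90. Mgat4a, a glycosyltransferase at place 5 from Mitd1, was lower by 1.57-fold, at 7.15 and 6.50, and it was the only 1.5-fold gene of the 5 measured there.

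In the same order Glo1 stood between Gm6402, at 4.38 and 4.52, and 1700097N02Rik, at 3.87 and 3.91. Btbd9, next to Gm6402 and encoding a BTB-domain protein, was at 5.88 in WT and 5.42 in Nlrp6-/-, while Dnah8 and Glp1r on the other side were below both floors. Abcg1, a cholesterol exporter at place 5 from Glo1, was lower by 0.88. Beside Nnt, Mrps30, a mitochondrial ribosomal protein, differed by 0.07 and Paip1, a translation factor, by 0.32. Beside Wdfy1, Ap1s3, a clathrin adaptor subunit, differed by 0.21 and the ubiquitin ligase scaffold Cul3 by -0.25. No measured gene among the 10 nearest in this order to any of the 5 was at least 2-fold apart. Of all genes above a floor, 1.94% were. Those measured numbered 6 beside Gdpd3, 5 beside Mitd1, 6 beside Glo1, 5 beside Nnt and 4 beside Wdfy1. With so few genes, finding none is near that share.

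**Figure D3:**
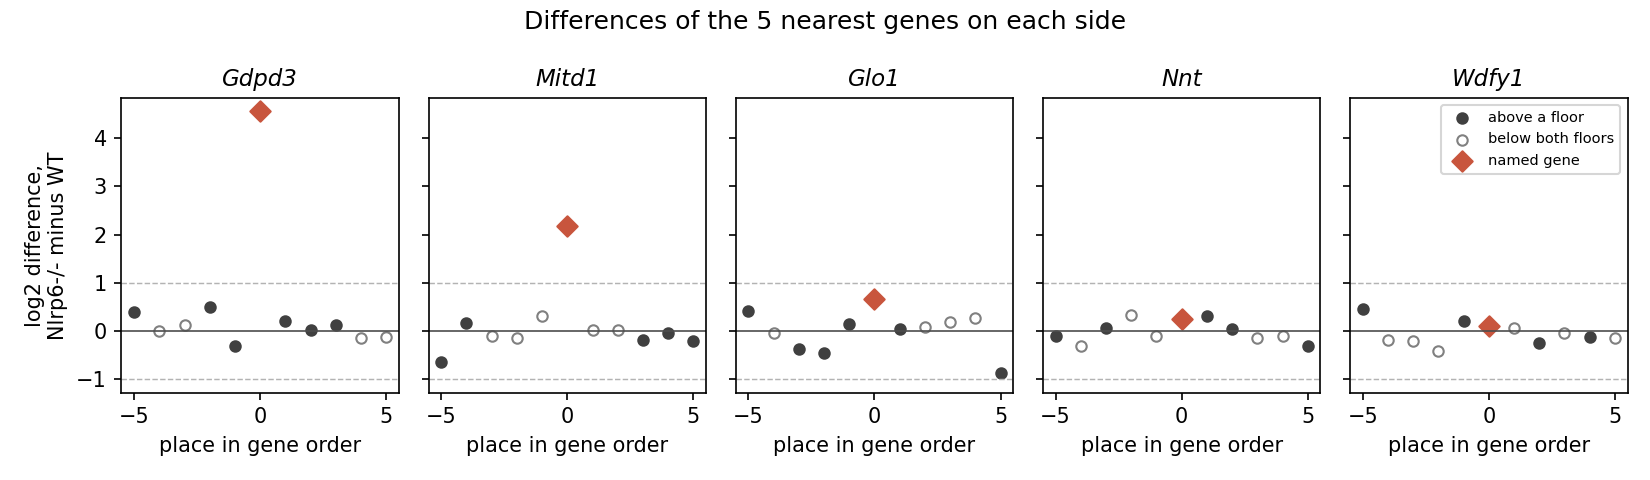
Log2 difference, Nlrp6-/- minus WT (y axis), of each of the 5 genes (diamond) and of the 5 genes on each side in gene order (x axis, place from the named gene), filled where above a floor on at least 1 array and open where below both. The order holds only genes matched to RefSeq and read by a single-symbol probe set. The diamonds of Gdpd3 (4.56) and Mitd1 (2.17), genes picked for these gaps, stand apart, and all other points lie within 1 log2 unit of 0.

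Genes of the same pathways were listed to see how the surroundings of each gene in function compared. All list counts below leave the 5 genes themselves out and count a gene at its difference or bound. Over all 9527 genes above a floor, 6.21% were at least 1.5-fold higher, 3.05% were lower by as much, and the median difference was 0.01. Of 34 other glycerophosphodiester and lysophospholipid genes, 31 had a probe set of their own and 20 were above a floor. Of these 20, 3 were at least 1.5-fold higher (6.21% of all genes were) and 1 lower (3.05%), and the median difference was 0.16. In the GDPD family, Gdpd1, the other lysophospholipase of this kind, was at 5.89 in WT and 6.23 in Nlrp6-/-. Gde1, which cleaves glycerophosphoinositol, was at 6.58 and 5.96, differing by -0.62. Gdpd2, Gdpd4 and Gdpd5 were below both floors. The others farthest apart were Pla2g15, the lysosomal phospholipase, at 1.05, Lypla1, a thioesterase that also cleaves lysophospholipids, at 0.81, Plpp3, a lipid phosphatase that degrades lysophosphatidic acid, at 0.81, and the arachidonate-releasing phospholipase Pla2g4a at -0.48. Of the receptors for lysophosphatidic acid, Lpar1 was at 4.29 and 4.45 and Lpar4 at 4.09 and 3.91. Lpar2 and Lpar3 were below both floors, and Lpar5 and Lpar6 had no probe set of their own.

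Of the 33 other ESCRT-III and abscission genes, 30 had a probe set of their own and 27 were above a floor. Of these 27, 1 was at least 1.5-fold higher and 1 lower, beside 6.21% and 3.05% of all genes, and the median was 0.07. Chmp6, an ESCRT-III subunit, was higher by 0.70, from 4.83 to 5.52. Vps37b, a subunit of ESCRT-I, was lower by 0.87, from 6.16 to 5.30. Chmp1a, an ESCRT-III subunit, differed by -0.47 and Zfyve26, also linked to cell separation, by -0.46. Chmp4b, whose product forms the cutting filament, was at 8.30 and 8.74. The disassembling ATPases were at 5.98 and 6.09 for Vps4a and at 7.26 and 6.90 for Vps4b. Cep55, which recruits ESCRT to the midbody in dividing cells, was below both floors.

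Of 17 other glyoxalase, methylglyoxal and glutathione genes, 16 had a probe set of their own and 12 were above a floor. Of these 12, 0 were at least 1.5-fold higher and 3 lower, beside 6.21% and 3.05% of all genes. By any amount 6 were higher and 6 lower, with a median of -0.03. Hagh, the second enzyme of the glyoxalase pathway, was at 4.07 in WT and 4.43 in Nlrp6-/-. The related genes Glod4 and Park7 differed by 0.27 and 0.44. The 3 lower genes make glutathione, the cofactor of Glo1. They were Gclc (-1.31), Gclm (-0.63) and Gss (-0.79). Among other genes that clear aldehydes, Akr1a1 was at -0.28 and Aldh9a1 at -0.24, while Aldh2 was at 0.17 and Aldh3a2 at 0.20. Gclc was the only listed gene here at least 2-fold lower, and 0.325% of all genes were.

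Of 21 mitochondrial NADPH and peroxide removal genes beside Nnt, 19 had a probe set of their own and 15 were above a floor. Of these 15, 2 were at least 1.5-fold higher and 0 lower, beside 6.21% and 3.05% of all genes, with a median of 0.06. Idh2, the NADPH-making isocitrate dehydrogenase of mitochondria, was higher by 0.68, from 3.51 to 4.18. Shmt2, of mitochondrial folate metabolism, was higher by 0.60, from 4.05 to 4.65. The peroxide-removing Prdx3 differed by 0.51 and Glrx2, a mitochondrial glutaredoxin, by 0.42, while Sod2 was at 10.01 and 9.97.

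Of 31 endosomal FYVE and TLR3/TLR4-TRIF genes beside Wdfy1, 29 had a probe set of their own, and all 29 were above a floor. Among them 2 were at least 1.5-fold higher and 1 lower, beside 6.21% and 3.05% of all genes, with a median of -0.11. In the Wdfy family, Wdfy2 was at 6.01 in WT and 5.81 in Nlrp6-/-. Wdfy3, a large selective autophagy protein, was at 6.19 and 5.62, and Wdfy4, which serves antigen cross-presentation in dendritic cells, at 3.75 and 3.64. The 2 higher genes were Irf7, at 6.17 and 6.95, and Ly96, the co-receptor of TLR4, at 6.60 and 7.34. Rufy1, an endosomal FYVE protein, was the lower one at -0.60, and Rabep1, an effector of the endosomal GTPase Rab5, was at -0.53. The receptor gene Tlr3 was below the floor in WT (2.69) and above it in Nlrp6-/- (3.57), and Tlr4 was at 6.76 and 6.40. The adaptor TRIF, encoded by Ticam1, was at 4.29 and 4.37.

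**Figure D4:**
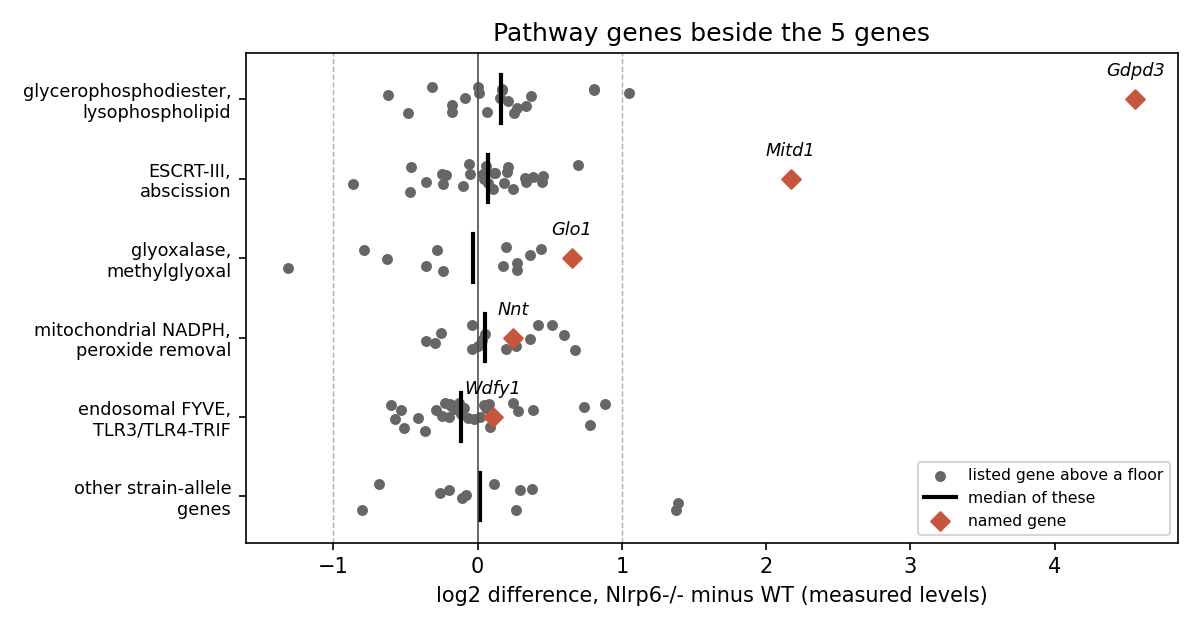
Log2 difference, Nlrp6-/- minus WT (x axis, measured levels), for genes above a floor on at least 1 array in the 6 lists (y axis), with the median of each list without the 5 genes as a black bar and the 5 genes as diamonds. The medians lie between -0.11 and 0.16. Gdpd3 and Mitd1, picked for their higher Nlrp6-/- levels on these arrays, lie to the right of every other gene of their lists.

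Of 30 other genes with known alleles in inbred strains or substrains, 23 had a probe set of their own and 12 were above a floor. Of these 12, 2 were at least 1.5-fold higher and 2 lower, beside 6.21% and 3.05% of all genes, with a median of 0.02. Both higher genes were interferon-induced antiviral genes: Mx1, at 4.90 in WT and 6.28 in Nlrp6-/-, and Oas1b, at 3.28 and 4.65. The lower genes were Slc11a1, the phagosomal metal transporter, at 7.74 and 6.94, and Ide, the insulin-degrading enzyme, at 4.17 and 3.49. Casp4, the inflammatory caspase that is defective in some inbred strains other than C57BL/6, was at 9.14 and 9.25. Ifi202b, an interferon-inducible gene with little expression in C57BL/6 mice, was below both floors, at 2.56 and 2.43, as was H2-Ea, which C57BL/6 mice do not express. Probe set levels do not read alleles, and none of these values assigns a strain.

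Markers of the sorted cells and of other cells were read on the same arrays. Over all genes above a floor, 51.6% were on the higher side in Nlrp6-/- by any amount, with a median of 0.01. The 10 monocyte markers that could be read all lay above both floors, with Ly6c2, which encodes the sorted antigen, at 9.06 in WT and 9.36 in Nlrp6-/-, and their median difference was 0.21. Of 16 colon epithelial markers 12 were above a floor and all 12 were on the higher side in Nlrp6-/-, with a median of 1.01 and summed log2 levels of 51.0 and 63.6. Epcam, an epithelial surface protein, was at 4.71 and 5.74 and Muc13, a membrane mucin, differed by 1.79, while Krt20, Cdx2, Fabp2 and Slc26a3 were below both floors. Of 11 B and plasma cell markers 9 were above a floor and all 9 were on the higher side (median 0.43, summed levels 50.1 and 55.7), with Ms4a1 below both floors. Neutrophil markers had 6 of 12 above a floor, 5 of them on the higher side (median 0.76, summed levels 29.1 and 33.9), with Camp, Ngp, Ltf, Mmp9, Elane and Mpo below both floors. Pancreatic acinar markers had 5 of 12 above a floor, all on the higher side (median 1.30, summed levels 16.1 and 24.0), with Prss1, Prss2, Cel, Cela1 and Amy2b below both. Of these 5, 3 were at least 2-fold higher at their difference or bound, beside 1.62% of all genes above a floor. The same count was 6 of 12 for epithelial, 3 of 6 for neutrophil and 3 of 12 for stromal and endothelial markers. It was 1 of 9 for B and plasma cell, 1 of 10 for monocyte and 0 of 6 for T and NK cell markers. Stromal and endothelial markers were all above both floors, with 9 of 12 on the higher side (median 0.21, summed levels 65.2 and 70.2). T and NK cell markers had 6 of 12 above a floor, 3 of them higher (median 0.08, summed levels 28.8 and 29.4), with Ncr1, Klrb1c and Cd4 below both. Above both floors were 9 of the 12 epithelial, 8 of the 9 B and plasma cell and 4 of the 6 neutrophil markers. So were 5 of the 6 T and NK cell and 1 of the 5 pancreatic acinar markers. The other markers counted in these lists passed only through their Nlrp6-/- level, which all but fixed them on the higher side. In such bulk RNA more cells of a type and more RNA per cell cannot be told apart. The part of these other cells in the levels of Gdpd3, Mitd1 and Glo1 was not tested.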

How the data were processed

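RNA of sorted monocytes was measured on 1 array per genotype, grouped by the labels' genotype. Per the labels' protocols, 10 ng of RNA was amplified and hybridised for 20 h at 48 °C. The protocols name both a NuGEN and an Affymetrix kit for labelling, and which was used for either array is not settled. The authors computed robust multiarray average (RMA) levels with the oligo package in R 2.15.1 and deposited them on the log2 scale. RMA equalises the arrays' distributions, so a shift of all transcripts cannot be seen. The set of arrays normalized together is not stated.

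Platform annotation gave 23525 probe sets 1 symbol, 1810 several and 16010 none. Of several probe sets of a gene, the one with the highest mean was used. Gene order came from RefSeq GRCm38.p6 (21994 genes matched by identifier). It leaves out genes not read by a single-symbol probe set. Differences are Nlrp6-/- minus WT, and no test was run. The members and lists were chosen with earlier results of these data known. By rule the text names the 5 genes, Nlrp6, the nearest measured or 1.5-fold neighbours, each list's family members, up to 4 further list members farthest apart above both floors, the 3 nearest patterns and 3 markers. Other genes in the text were chosen after their values were seen. Alternatives were 3 normalizations, other floors or none, the mean of probe sets and other fold thresholds. Scripts (Python 3.11.15, pandas 2.3.3, statsmodels 0.14.6) were tested on simulated data.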

Additional observations from a re-analysis of the deposited data

How the results depend on the processing

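The 5 genes were recomputed under 3 other normalizations, 3 other floors and the mean of probe sets. None of these 32 values changed direction, which is no support, since several settings could not change it. A lower floor or none leaves a gene already above both floors at its value. A higher floor can only turn that value into a bound, which cannot reverse. Gdpd3 was 4.56 on the log2 scale with the floor at the 90th percentile and with no floor, where both levels count as measured, and at least 2.33 once the 99th percentile served as floor. That floor also made Mitd1 a bound, at least 1.40, and left Glo1, Nnt and Wdfy1 below it on both arrays, with no value. Otherwise the range was 4.15 to 4.17 for Gdpd3, 2.15 to 2.19 for Mitd1, 0.65 to 0.67 for Glo1, 0.24 to 0.27 for Nnt and 0.10 to 0.13 for Wdfy1. With 1 probe set per gene, the mean of probe sets leaves these 5 values as they are.

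Of the counts over all genes, 154 higher became 93 under that floor, which left 4946 genes to compare. At 1.5-fold there were 592 higher and 291 lower, and at 3-fold 29 higher and 0 lower. The lower count was 22 under the 99th percentile floor. The other settings gave 142 to 167 higher and 28 to 33 lower. No paired analysis was possible because each genotype has 1 array. Levels near the floor, such as those of Nnt, limit what these arrays can resolve.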
